A study of Mus musculus with 6 samples.

Results

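The 50 genes described here encode the machinery that licenses replication origins, unwinds DNA and copies it at the fork. They were taken by symbol from a list of members in the deposited table, which holds 21397 genes, and all 50 were present in it. Expression was measured by RNA sequencing (RNA-seq) in small intestinal organoids, which are epithelial cultures grown in matrix from crypts. The organoids came from Fpr2f/f mice, so the control group and the treated group shared the floxed Fpr2 alleles, and no Cre driver is named for them in the labels. The treated group (MMK-1) received MMK-1, a peptide agonist of the receptor FPR2, at 1 μM for 5 days, and the control group (Control) received the vehicle, 0.1% DMSO, for the same time. The treatment label of the MMK-1 libraries gives 1 mM, while their protocol and the study's methods give 1 μM, and the latter was taken as the dose. Each group had 3 libraries, and each sample pooled organoids of 3 mice. The labels do not say whether the libraries of a group came from separate cultures, so p-values measure the spread between these libraries, which may be technical.

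DNA replication starts at origins bound by the origin recognition complex (ORC). With CDC6 and CDT1, ORC loads the ring-shaped MCM2-7 helicase onto DNA in G1 phase, a step called licensing. In S phase the kinase CDC7-DBF4 and further factors bring CDC45 and GINS to the helicase, the ring opens DNA, and primase and the replicative polymerases copy it. In the small intestine these genes are known to be most active in the dividing stem and transit-amplifying cells of the crypt, and many of them are targets of E2F transcription factors. In bulk RNA, more cells of a type and more RNA per cell cannot be told apart.

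The total depth was 35512739 to 37537463 fragments per library, and the members held 74 to 7172 fragments each in any library. Values are FPKM, the fragments on a gene scaled by its length and the total of the library. Group differences were tested with limma on log2(FPKM + 1) for the 10551 genes whose mean FPKM was 1 or more, and all 50 members passed this filter. All log2 fold changes below are MMK-1 minus Control on that scale, which understates the change of genes with low FPKM. They are given with their standard error (SE) and a Benjamini-Hochberg adjusted p over all genes tested. MMK-1 replicate 3 stood apart from the other MMK-1 libraries. Over genes, its chi-square per degree of freedom was 45.2 against replicate 1 and 38.6 against replicate 2, where a value near 1 marks counting noise alone. The value was 3.85 between MMK-1 replicates 1 and 2, and 2.92 to 5.61 between control libraries.

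Promoter sequences of the members are shown first because the words that E2F factors are known to bind recur in them. RefSeq windows on GRCm38.p6, from 250 bases before to 50 bases after the gene start, matched 41 of the 50 members. The words TTTCCCGC, TTTCGCGC, TTTGCCGC and TTTGGCGC, which follow the general form of E2F sites, were searched on both strands with overlaps allowed. At least 1 of them was present in the windows of 16 members, or 39.0%. Among 8572 tested genes with a window the share was 4.44%, and among all 16269 genes of the table with a window it was 3.41%. The shorter word CCAAT, bound by NF-Y, was present in 56.1% of member windows and 39.4% of those of tested genes. The word TTTGAA, found in many mitotic promoters, was present in 14.6% and 12.2%, respectively. These words were chosen after the values of the members had been seen, and a match is a description of the letters, not of a bound site. Below are the 250 bases before the start of 5 members with E2F words there and of Dbf4, whose log2 fold change on the log2(FPKM + 1) scale was the largest, and Orc5, the member that fell, which hold none. Capitals mark the E2F words or their reverse complement, and sequences are written 5′ to 3′ on the strand of the gene. Starts are those of RefSeq, and the GENCODE gene spans used for other coordinates begin 350 bases earlier for Cdc6, so that its whole window lies within the GENCODE gene, 91 earlier for Orc5 and 31 earlier for Orc1.
Mcm5 (chr8:75109259-75109508, plus strand): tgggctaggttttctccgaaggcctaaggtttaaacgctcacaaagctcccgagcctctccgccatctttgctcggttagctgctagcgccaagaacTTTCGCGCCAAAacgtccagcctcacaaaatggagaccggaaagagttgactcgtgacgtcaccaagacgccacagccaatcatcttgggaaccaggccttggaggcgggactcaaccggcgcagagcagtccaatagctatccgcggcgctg
Mcm6 (chr1:128359706-128359955, minus strand): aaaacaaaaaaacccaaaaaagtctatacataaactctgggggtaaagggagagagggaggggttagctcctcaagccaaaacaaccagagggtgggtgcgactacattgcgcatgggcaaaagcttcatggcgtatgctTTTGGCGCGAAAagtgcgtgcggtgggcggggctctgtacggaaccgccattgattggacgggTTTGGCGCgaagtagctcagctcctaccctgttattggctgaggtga
Orc1 (chr4:108579204-108579453, plus strand): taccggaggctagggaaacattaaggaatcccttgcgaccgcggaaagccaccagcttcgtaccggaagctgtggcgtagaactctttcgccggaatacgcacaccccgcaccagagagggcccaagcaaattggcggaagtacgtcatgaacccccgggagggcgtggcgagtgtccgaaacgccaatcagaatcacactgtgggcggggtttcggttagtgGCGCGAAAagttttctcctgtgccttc
Cdc6 (chr11:98907901-98908150, plus strand): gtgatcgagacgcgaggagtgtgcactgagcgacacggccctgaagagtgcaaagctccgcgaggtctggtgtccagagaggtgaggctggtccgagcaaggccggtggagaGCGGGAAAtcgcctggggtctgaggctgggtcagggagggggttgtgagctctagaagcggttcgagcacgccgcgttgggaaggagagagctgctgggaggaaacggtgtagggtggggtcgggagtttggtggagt
Pola1 (chrX:93632156-93632405, minus strand): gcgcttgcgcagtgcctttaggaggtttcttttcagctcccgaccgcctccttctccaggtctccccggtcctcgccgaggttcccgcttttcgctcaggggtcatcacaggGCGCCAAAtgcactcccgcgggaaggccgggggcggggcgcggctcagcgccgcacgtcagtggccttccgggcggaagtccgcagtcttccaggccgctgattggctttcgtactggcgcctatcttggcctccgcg
Dbf4 (chr5:8422717-8422966, minus strand): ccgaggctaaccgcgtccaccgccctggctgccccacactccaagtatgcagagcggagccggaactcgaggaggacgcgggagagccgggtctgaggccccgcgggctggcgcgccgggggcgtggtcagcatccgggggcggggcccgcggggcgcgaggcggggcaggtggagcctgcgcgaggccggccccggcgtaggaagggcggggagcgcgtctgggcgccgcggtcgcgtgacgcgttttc
Orc5 (chr5:22550339-22550588, minus strand): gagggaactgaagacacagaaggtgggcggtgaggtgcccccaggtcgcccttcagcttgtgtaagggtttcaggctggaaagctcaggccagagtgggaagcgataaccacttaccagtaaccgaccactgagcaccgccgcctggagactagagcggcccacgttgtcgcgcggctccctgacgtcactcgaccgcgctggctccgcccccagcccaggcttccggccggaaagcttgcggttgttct
In Mcm5 and Mcm6 a pair of words on opposite strands overlapped and form a single run of capitals, and Mcm6 held a further word closer to the start. Members with and without the word lay close in response. The median log2 fold change was 0.72 over the 16 members with an E2F word in the whole window and 0.67 over the 25 without.

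MMK-1 libraries had higher levels of 47 of the 50 members (limma, adjusted p threshold of 0.05), while 48.5% of all genes tested were called higher. Orc5 was lower, the single such member, where 24.7% of all genes were called lower. The remaining members, Orc3 and Gins4, did not pass the test. The median log2 fold change of the members was 0.68 against 0.13 for all genes tested, and 24 members lay above 0.69, the 90th percentile of all genes. The same 47 members had 3 MMK-1 values above all 3 control values, a pattern seen in 50.5% of all genes tested, and Orc5 had the opposite pattern, seen in 26.3%. With a fold of 2 or more on the log2(FPKM + 1) scale and an unadjusted p threshold of 0.05, 7 members were higher and 0 were lower, against 3.39% and 3.65% of all genes. The study used the same cut-offs, but how it computed the fold is not given in the sources used here. By the plain ratio of mean FPKM, 17 members were 2-fold or more higher, as were 7.01% of all genes tested. The summed FPKM of the members was 472 to 482 in control libraries and 746 to 801 in MMK-1 libraries. As a share of all fragments on listed genes, the members rose from between 0.116% and 0.1196% to between 0.193% and 0.205%. The FPKM ratios of the 47 higher members ran from 1.22 in Rfc2 to 2.57 in Orc1. For each member called in limma, the exact two-sided permutation p over the 6 libraries was 0.1, the smallest that 3 libraries against 3 allow.

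The size of these changes moved with the scaling between libraries. After a scaling of the type of the trimmed mean of M values (TMM), the median of all genes moved from 0.13 to 0.0055 and the log2 fold changes of the members fell by 0.083 to 0.15. The same number of members, 47, was then called higher where 35.9% of all genes were, Orc5 and Gins4 were called lower where 36.3% were, and 0 members reached a 2-fold rise, where 2.18% of all genes did. Under upper-quartile scaling 47 members were higher and 1 was lower, against 41.7% and 31.2% of all genes. After removal of a trend on GC content 45 were higher and 1 was lower, against 39.5% and 34%, and after removal of a trend on transcript length 45 and 1, against 37.2% and 33.4%. With limma-voom on recovered fragments, which adds no pseudocount to the FPKM, 17 members reached a 2-fold rise, where 6.9% of all genes did.

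**Figure D1:**
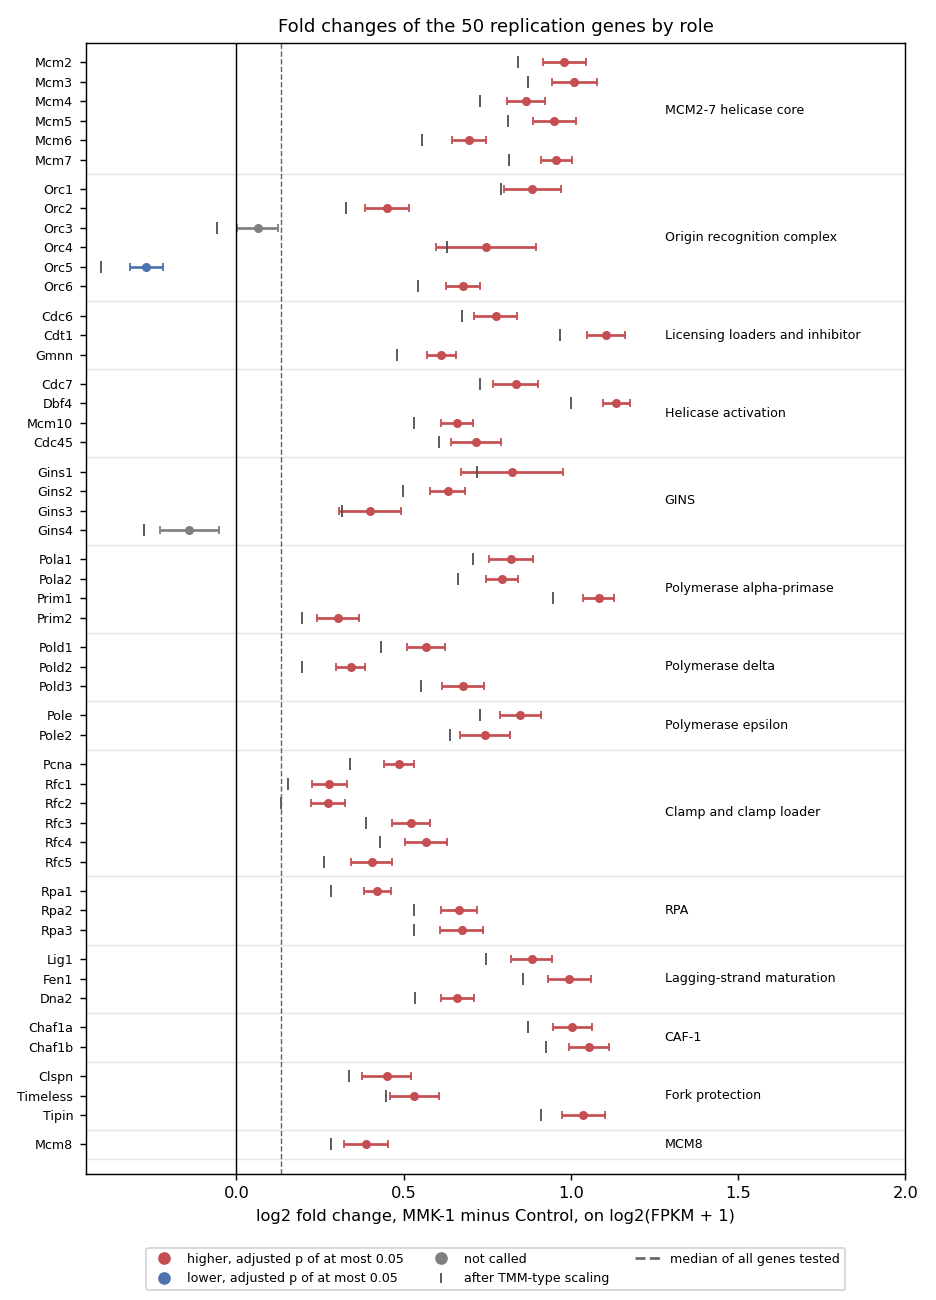
Log2 fold change of each of the 50 members, MMK-1 minus Control, on the log2(FPKM + 1) scale (points, with bars of 1 SE from limma, 3 libraries per group), grouped by role. Red marks the 47 genes called higher, blue Orc5, grey Orc3 and Gins4, ticks the values after TMM-type scaling, and the dashed line the median of all genes tested at 0.13.

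The 6 subunits of the MCM2-7 helicase, the motor that is loaded at origins and later unwinds DNA, all rose, with a median log2 fold change of 0.95. Mcm7 was the most abundant, with FPKM of 19.7, 18.9 and 19.5 in controls against 37.5, 37.7 and 40.5 after MMK-1 treatment. Its log2 fold change was 0.96 (SE 0.0455, adjusted p = 3e-07 in limma). The gene lies at chr5:138164583-138172422 (GRCm38, minus strand), where its exons overlap those of Cops6 and Ap4m1 on the other strand. Mcm3 changed most, from 9.896, 11.3 and 9.84 in controls to 21.6, 20.5 and 23.4 with MMK-1, a log2 fold change of 1.01 (SE 0.067). Mcm2 followed with 10.7, 10.1 and 9.602 in controls and 20.04, 20.01 and 22.9 in treated organoids, a log2 fold change of 0.98 (SE 0.0639). In both genes the lowest MMK-1 library lay well above the highest control library, and MMK-1 replicate 3 was the highest of all. Mcm5 had FPKM of 12.3, 11.02 and 10.9 in controls and 22.6, 21.7 and 24.8 with MMK-1, and a log2 fold change of 0.95. Mcm4 had 9.49, 8.83 and 9.09 without and 16.2, 17.8 and 18.4 with MMK-1, a log2 fold change of 0.87. Mcm6 changed least of the 6, from 15.3, 14.96 and 15.2 to 24.2, 24.4 and 26.9, with a log2 fold change of 0.70 (SE 0.0503, adjusted p = 3.62e-06 in limma). Mcm6 was second to Mcm7 in level in every control library, and its gap to Mcm5 narrowed with MMK-1.

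**Figure D2:**
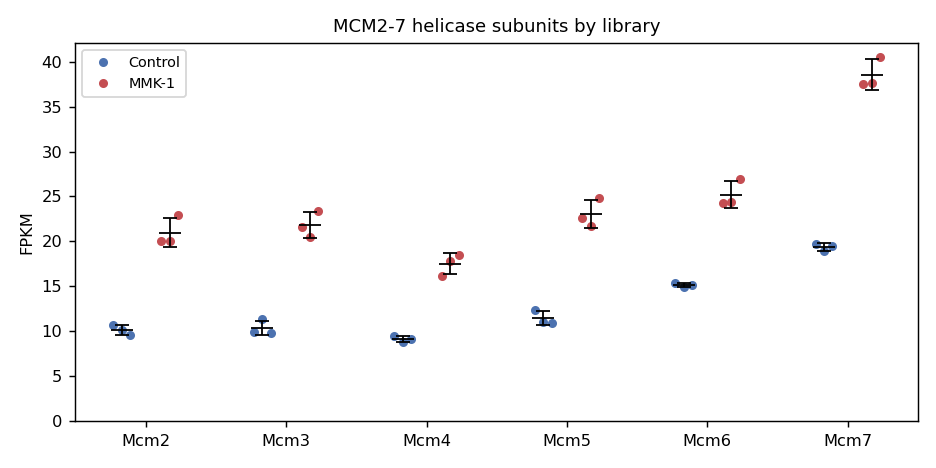
FPKM of the MCM2-7 subunits in each library (points; black bars are the mean and SD of 3 libraries). In each subunit the MMK-1 libraries lie above the control libraries, from 15.3 at most to 24.2 at least in Mcm6 and from 19.7 to 37.5 in Mcm7. This pattern was seen in 50.5% of all genes tested.

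The ORC subunits, which mark origins and recruit the helicase, were the most divided group. Of 6 genes, 4 were higher, 1 was lower and 1 did not pass the test. Orc1, the subunit whose supply is known to be limited to part of the cell cycle, was the least abundant in controls, with FPKM of 1.44, 0.999 and 0.985, and rose to 2.96, 2.95 and 2.903. Its FPKM ratio of 2.57 was the highest of all members, and its log2 fold change was 0.88 (SE 0.0851, adjusted p = 2.08e-05 in limma). Orc6, which is less tightly bound to the complex in animal cells, rose from 7.12, 6.56 and 7.197 to 11.5, 12.1 and 11.5, a log2 fold change of 0.68 (SE 0.0509). Orc2, a core subunit, rose from 3.71, 3.82 and 3.49 to 5.16, 5.07 and 5.94, a log2 fold change of 0.45 (SE 0.0647). These genes were higher in every MMK-1 library than in any control library, as were 50.5% of all genes tested.

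Orc4, an ATPase subunit, differed between the MMK-1 libraries. Its FPKM was 2.95, 2.72 and 2.76 in controls and 6.49, 6.23 and 3.79 with MMK-1, so that MMK-1 replicate 3 lay closer to the controls than to the other MMK-1 libraries. The log2 fold change was 0.75 (SE 0.15, adjusted p = 0.00183 in limma), 0.95 without MMK-1 replicate 3, and 0.35 after the trend on GC content was removed from each library. The GC content of the Orc4 transcript was 36.8%. Over all 584 tested genes with a GC content under 40%, the median log2 difference of MMK-1 replicate 3 from the mean of the other MMK-1 libraries was -0.29, and over the 5 members with such a GC content it was 0.033. Orc4 exons also overlap those of Acvr2a on the other strand, and whether the counting used strand is not given in the sources used here.

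Orc5 (NCBI gene 26429), another ATPase subunit, was the single member that fell. In controls it had the highest FPKM of ORC, but not with the longest GENCODE transcripts as lengths, with which Orc3 was higher. Its FPKM was 14.004, 12.7 and 12.9 in controls and 10.5, 10.9 and 10.9 with MMK-1, and the groups did not overlap. The log2 fold change was -0.27 (SE 0.0503, adjusted p = 0.00119 in limma), and it was -0.62 after GC correction and -0.41 after TMM-type scaling. The gene lies at chr5:22486485-22550429 (GRCm38, minus strand), and the pseudogene Gm15421 overlaps its exons on the same strand, so reads could be assigned to either. Orc3, which binds Orc2 in the core, had 4.68, 4.56 and 4.57 in controls and 4.37, 5.102 and 5.13 with MMK-1. Its log2 fold change was 0.06 (SE 0.0621, adjusted p = 0.378 in limma), and its sign turned to -0.059 under TMM-type scaling and -0.28 after GC correction.

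The factors that load the helicase rose together with the inhibitor that prevents repeated loading. Cdt1, which brings MCM2-7 to ORC, had FPKM of 10.1, 10.1 and 9.23 in controls and 20.9, 22.6 and 23.3 with MMK-1, a log2 fold change of 1.11 (SE 0.0564, adjusted p = 4.61e-07 in limma). Gmnn, which encodes geminin, the protein that binds and blocks CDT1, had 6.26, 6.33 and 6.32 in controls and 9.93, 10.1 and 10.4 with MMK-1, a log2 fold change of 0.61 (SE 0.0434). The share of Cdt1 in their summed FPKM was 60.8% ± 1.30 (SD, n = 3) in controls and 68.6% ± 0.760 (SD, n = 3) with MMK-1. Which of the pair was higher depended on the length, since the FPKM values imply 2648 bases for Gmnn and its longest GENCODE transcript has 1127. With GENCODE lengths the share of Cdt1 was 34.96% ± 1.23 in controls and 43.1% ± 0.861 with MMK-1 (SD, n = 3), and Gmnn was higher in all 6 libraries. Cdc6, the ATPase that acts beside ORC, was far less abundant, at 1.46, 1.49 and 1.45 in controls and 3.02, 3.104 and 3.56 with MMK-1, a log2 fold change of 0.77 (SE 0.0637).

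All 4 genes that activate the loaded helicase were higher. Dbf4, the regulatory subunit of the CDC7 kinase, had the largest log2 fold change of all members on this scale, but after GC correction Cdt1 was higher, at 1.02 against 0.82, and in limma-voom Orc1, at 1.38 against 1.23. The FPKM of Dbf4 was 7.94, 7.87 and 7.69 in controls and 18.3, 18.2 and 18.7 with MMK-1, a log2 fold change of 1.14 (SE 0.0409, adjusted p = 6.8e-08 in limma). The kinase subunit Cdc7 was at 1.77, 1.57 and 1.97 in controls and 3.84, 3.83 and 4.14 with MMK-1, a log2 fold change of 0.83 (SE 0.067). Dbf4 made up 81.6% ± 1.88 of the summed FPKM of the pair in controls and 82.4% ± 0.446 with MMK-1 (SD, n = 3), a difference of 0.817 percentage points within overlapping libraries. Mcm10, which is needed for the helicase to begin unwinding, was at 4.78, 5.18 and 5.19 in controls and 8.53, 8.52 and 8.57 with MMK-1. The MMK-1 libraries hardly differed from each other in this gene. Its log2 fold change was 0.66 (SE 0.0479). Cdc45, which joins MCM2-7 and GINS in the active helicase, was at 1.93, 2.36 and 2.51 in controls and 4.22, 4.24 and 4.59 with MMK-1, a log2 fold change of 0.72 (SE 0.0748).

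The GINS complex, 4 subunits that hold the active helicase together, had 3 higher genes and 1 that did not pass the test. Gins2 rose from 7.79, 8.16 and 7.32 to 12.1, 12.95 and 12.7, a log2 fold change of 0.63 (SE 0.0524, adjusted p = 8.29e-06 in limma). Gins1 was at 1.66, 1.23 and 2.15 in controls and 4.49, 2.83 and 3.93 with MMK-1, a log2 fold change of 0.82, with the largest SE of all members at 0.153. Gins3 was at 1.07, 1.06 and 0.821 without and 1.401, 1.51 and 1.95 with MMK-1, a log2 fold change of 0.40 (SE 0.0929, adjusted p = 0.00412 in limma). These 3 genes were higher without overlap between the groups, as were 50.5% of all genes tested. Gins4 had the highest FPKM of the complex in controls, at 11.02, 11.95 and 9.34, and 9.5996, 8.88 and 10.5 with MMK-1, and its groups overlapped. Its log2 fold change was -0.14 (SE 0.0879, adjusted p = 0.176 in limma). The log2 fold change of Gins4 was called lower without Control replicate 3, at -0.23 (adjusted p = 0.0278 in limma), and under TMM-type scaling, at -0.28 (adjusted p = 0.0204).

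**Figure D3:**
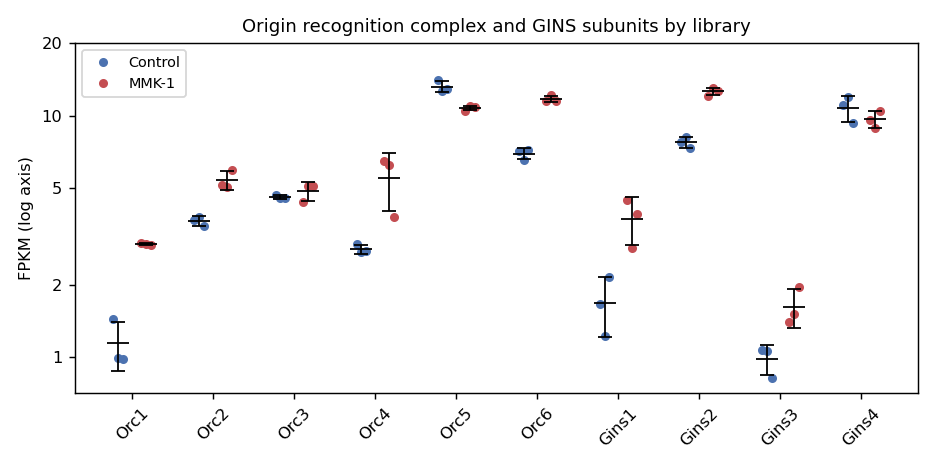
FPKM on a log axis of the ORC and GINS subunits in each library (points; black bars are the mean and SD of 3 libraries). Orc5 lies lower with MMK-1, Orc3 and Gins4 overlap between the groups, and in Orc4 a single MMK-1 library, at 3.79, lies apart from the others at 6.49 and 6.23.

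Polymerase α-primase starts each new strand with an RNA-DNA primer, and its 4 genes were higher by unequal amounts. Prim1, the catalytic primase subunit, rose from 8.71, 9.05 and 9.35 to 20.9, 19.7 and 20.2, a log2 fold change of 1.08 (SE 0.046, adjusted p = 1.63e-07 in limma). Its partner Prim2, the large primase subunit, was at 2.48, 2.23 and 2.15 in controls and 2.85, 3.08 and 3.24 with MMK-1, a log2 fold change of 0.30 (SE 0.0638, adjusted p = 0.00233 in limma). After GC correction the Prim2 value was 0.13 (adjusted p = 0.124), and the gene was not called. The catalytic polymerase subunit Pola1 was at 2.53, 2.15 and 2.44 in controls and 5.07, 5.203 and 4.604 with MMK-1, a log2 fold change of 0.82 (SE 0.0653). Pola2, its accessory subunit, was at 6.31, 6.37 and 6.44 without and 12.3, 11.3 and 11.8 with MMK-1, a log2 fold change of 0.79 (SE 0.0468).

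The leading strand is copied mainly by polymerase ε and the lagging strand by polymerase δ. The catalytic subunit of the former, Pole, was at 3.23, 3.06 and 2.87 in controls and 6.11, 5.997 and 6.78 with MMK-1, a log2 fold change of 0.85 (SE 0.061). Its accessory subunit Pole2 was at 1.701, 1.44 and 1.78 without and 3.77, 3.23 and 3.26 with MMK-1, a log2 fold change of 0.74 (SE 0.0744). The FPKM ratios of the pair were 2.06 and 2.08. The subunits Pole3 and Pole4 are not members and were named after their values were seen. The mean FPKM of Pole3 was 20.5 in controls and 19.7 with MMK-1, a log2 fold change of -0.059 that was not called. Pole4 went from 9.75 to 12.3 and was called higher, at 0.30 (SE 0.0773). Under TMM-type scaling Pole3 was called lower, at -0.20, and Pole4 was not called. In polymerase δ, the catalytic subunit Pold1 was at 8.0003, 7.598 and 7.99 in controls and 11.5, 11.8 and 13.2 with MMK-1, a log2 fold change of 0.57 (SE 0.0577). Pold3 was at 4.15, 3.99 and 4.05 without and 6.64, 6.84 and 7.87 with MMK-1, a log2 fold change of 0.68 (SE 0.0639). The most abundant subunit, Pold2, was at 26.8, 25.7 and 26.8 without and 33.3, 32.8 and 35.1 with MMK-1 and changed least, with a log2 fold change of 0.34 (SE 0.0433, adjusted p = 0.000118 in limma). All 5 members of polymerases ε and δ were higher in each MMK-1 library than in any control library, as were 50.5% of all genes tested.

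The sliding clamp and its loader were, beside Mcm8, the least changed of the groups in which every gene was higher, with a median log2 fold change of 0.44. Pcna, the clamp that tethers polymerases to DNA and a common marker of dividing cells, had the highest FPKM of all members. It was at 103, 104 and 104 in controls and 138, 146 and 153 with MMK-1, a log2 fold change of 0.49 (SE 0.0452, adjusted p = 1.69e-05 in limma). The 5 subunits of replication factor C (RFC), which opens and closes the clamp, ran from a log2 fold change of 0.27 in Rfc2 to 0.57 in Rfc4. Rfc4 was at 11.7, 10.1 and 9.97 in controls and 15.7, 16.1 and 16.6 with MMK-1, and its exons overlap those of the more abundant Eif4a2 on the other strand. Rfc2 was at 18.9, 19.4 and 20.8 without and 23.2, 23.9 and 25.04 with MMK-1. Rfc1, the large subunit, was at 4.17, 4.34 and 4.34 without and 5.19, 5.28 and 5.74 with MMK-1, a log2 fold change of 0.28 (SE 0.0526). Rfc1 and Rfc2 were no longer called once a trend on transcript length was removed, at 0.10 (adjusted p = 0.121 in limma) and 0.089 (adjusted p = 0.16). The lengths in that correction were those of the longest GENCODE transcripts, 4751 and 4995 bases, whereas the deposited FPKM values imply 7701 for Rfc1 and 1518 for Rfc2. With the implied lengths, an alternative added after the data were seen, Rfc2 stayed called at 0.27 (adjusted p = 0.000489 in limma) and Rfc1 did not, at 0.076 (adjusted p = 0.259). Rfc3 and Rfc5 had log2 fold changes of 0.52 (SE 0.057) and 0.40 (SE 0.0618).

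Replication protein A (RPA) coats the single strands behind the helicase, and its 3 genes were higher. Rpa3, the smallest and most abundant subunit, was at 19.6, 21.003 and 18.9 in controls and 29.3, 33.7 and 33.8 with MMK-1, a log2 fold change of 0.67 (SE 0.0652, adjusted p = 2.16e-05 in limma). Its transcript had the lowest GC content of all members, 34.2%, and after GC correction its value was 0.19 (adjusted p = 0.327), which was not called. Rpa2 was at 8.899, 8.51 and 9.31 without and 14.03, 14.6 and 15.5 with MMK-1, a log2 fold change of 0.67 (SE 0.0536). Rpa1, the large subunit that binds most of the strand, was at 13.5, 12.9 and 13.3 without and 17.7, 18.3 and 18.2 with MMK-1, a log2 fold change of 0.42 (SE 0.0413).

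The enzymes that trim and join Okazaki fragments on the lagging strand were higher. Fen1, the flap nuclease, was at 9.72, 10.3 and 8.91 in controls and 19.2, 19.7 and 21.7 with MMK-1, a log2 fold change of 0.99 (SE 0.0641, adjusted p = 1.82e-06 in limma). Lig1, the ligase that seals the fragments, was at 9.54, 9.801 and 8.53 without and 17.5, 17.3 and 19.1 with MMK-1, a log2 fold change of 0.88 (SE 0.0617). Dna2, a nuclease and helicase for long flaps, was at 4.86, 4.79 and 4.43 without and 8.17, 7.88 and 7.92 with MMK-1, a log2 fold change of 0.66 (SE 0.0499). The Fen1 exons overlap those of the abundant Tmem258 on the other strand.

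Chromatin assembly factor 1 (CAF-1) deposits histones on the copied DNA. Its subunit Chaf1b was at 4.21, 3.66 and 4.34 in controls and 9.53, 9.57 and 9.39 with MMK-1, a log2 fold change of 1.05 (SE 0.0598, adjusted p = 8.63e-07 in limma). The large subunit Chaf1a was at 6.51, 6.18 and 5.77 without and 13.4, 12.6 and 14.1 with MMK-1, a log2 fold change of 1.00 (SE 0.0578). The CAF-1 members had the highest median of the groups, 1.03. Both members passed the 2-fold threshold, which 3.39% of all genes tested did.

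Of the factors that stabilise moving forks, Tipin rose most, from 4.16, 3.77 and 4.46 to 9.55, 10.01 and 8.99, a log2 fold change of 1.04 (SE 0.0637, adjusted p = 1.39e-06 in limma). Its binding partner Timeless was at 1.08, 0.966 and 1.04 in controls and 2.09, 1.66 and 2.06 with MMK-1, a log2 fold change of 0.53 (SE 0.0738). The FPKM ratios were closer than the log2 fold changes, at 2.31 for Tipin and 1.89 for Timeless, since the pseudocount of 1 is of the order of the Timeless level. Clspn, which encodes the checkpoint mediator claspin, was at 2.697, 2.51 and 2.36 without and 3.61, 3.55 and 4.29 with MMK-1, a log2 fold change of 0.45 (SE 0.0726). Mcm8, a relative of the helicase subunits with a role in repair by recombination and not part of the MCM2-7 ring, was at 1.89, 2.13 and 1.83 without and 3.001, 2.62 and 2.93 with MMK-1, a log2 fold change of 0.39 (SE 0.0658, adjusted p = 0.000697 in limma).

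The shares of subunits within a complex do not depend on the scaling between libraries, and 41 subunits of 12 complexes or pairs were compared. The exact two-sided permutation p could not go below 0.1, so none could pass a threshold of 0.05, and the smallest value after Benjamini-Hochberg adjustment was 0.171. The shares are therefore given as values, and each sum holds members only. The sum of polymerase δ leaves out Pold4, whose mean FPKM was 9.72 in controls and 6.21 with MMK-1. That of polymerase ε leaves out Pole3 and Pole4, so these are not shares of the whole complexes. In ORC, Orc5 supplied 40.7% ± 0.521 of the summed FPKM in controls and 26.1% ± 0.840 with MMK-1 (SD, n = 3). Orc6 went from 21.5% ± 0.930 to 28.4% ± 0.309 and had the highest FPKM of the subunits with MMK-1, and Orc1 went from 3.51% ± 0.647 to 7.14% ± 0.166 (SD, n = 3). In GINS, Gins4 supplied 50.7% ± 2.92 in controls and 34.9% ± 1.06 with MMK-1, while Gins2 went from 36.6% ± 0.591 to 45.7% ± 3.32 (SD, n = 3). Shares compare genes per length, and the order of subunits depended on the length used. With the length of the longest GENCODE transcript, an alternative added after the data were seen, Gins4 led GINS in all 6 libraries. It was then at 66.3% ± 4.63 in controls and 48.4% ± 1.71 with MMK-1, and Gins2 at 12.6% ± 0.163 and 16.7% ± 2.09 (SD, n = 3). Orc3 then led ORC in the 3 control libraries, and Orc5 went from 21.7% ± 0.414 to 12.96% ± 0.753 (SD, n = 3). Exons of Orc6 overlap those of Vps35 on the other strand, whose mean FPKM was 72.8, and without a stated strand setting the level and rank of Orc6 are uncertain. The MCM2-7 ring kept its order at the top, with Mcm7 at 25.7% ± 0.608 and 26.2% ± 0.373, while Mcm6 fell back from 20.05% ± 0.346 to 17.1% ± 0.0702 (SD, n = 3). In polymerase α-primase, Prim1 went from 45.03% ± 1.36 to 50.6% ± 0.371 and Prim2 from 11.4% ± 0.934 to 7.64% ± 0.620 (SD, n = 3). With GENCODE lengths Pola2 led in all 6 libraries. Prim1 then went from 21.8% ± 0.943 to 26.2% ± 0.265 and Prim2 from 20.3% ± 1.38 to 14.6% ± 1.12 (SD, n = 3). Among the polymerase δ members, without Pold4, Pold2 went from 68.9% ± 0.0895 to 63.7% ± 1.12 (SD, n = 3). With the deposited FPKM, the groups did not overlap for the subunits whose shares are given here, other than Mcm7. They overlapped for both members of CDC7-DBF4, of polymerase ε and of CAF-1.

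**Figure D4:**
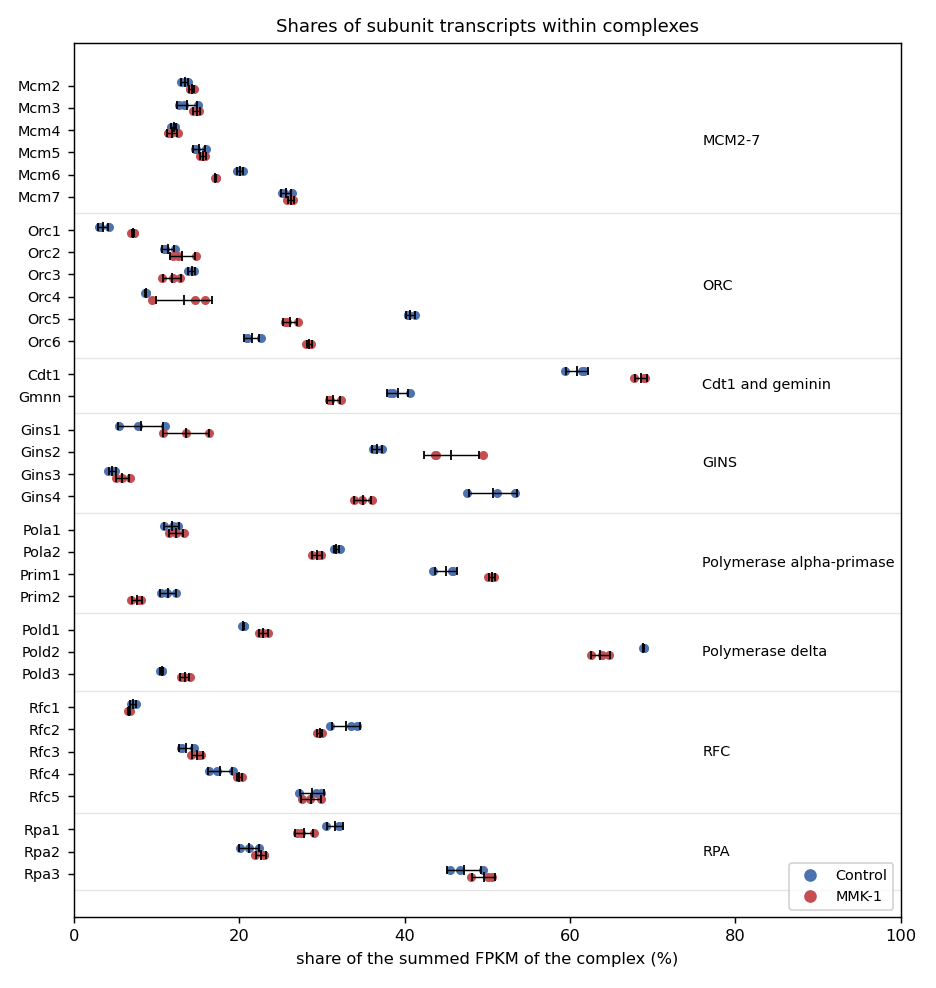
Share of each subunit in the summed FPKM of the members of its complex (percent), for 8 complexes, in each library (points, with black bars for the mean and SD of 3 libraries). Pold4 is not in the sum of polymerase δ. Orc5 and Gins4 lie 14.6 and 15.8 percentage points lower with MMK-1, while the MCM2-7 subunits differ by at most 2.93 points.

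Other genes of DNA replication, which are not members, moved in the same direction. Of 46 listed, 44 were in the table, 43 were tested, 38 were higher and 1 was lower. Among all genes tested, 48.5% were called higher and 24.7% lower. Their median log2 fold change was 0.56. Top2a stands in this list and in that of proliferating cells. On the log2(FPKM + 1) scale the largest changes were those of Hells, a chromatin remodeller, at 1.18 (SE 0.0822), and Topbp1, which helps to activate the helicase, at 1.18 (SE 0.048). After GC correction Hells was at 0.81, below Topbp1 at 1.098 and Rnaseh2c at 0.91, among others. Topbp1 was at 8.63, 7.91 and 8.74 in controls and 20.3, 20.3 and 20.5 with MMK-1. Rnaseh2c, a subunit of the enzyme that removes RNA from DNA, followed at 1.01 (SE 0.0618). The gene that fell was Pold4, the small subunit of polymerase δ, whose FPKM was 10.98, 8.696 and 9.49 in controls and 6.19, 6.18 and 6.27 with MMK-1. Its log2 fold change was -0.57 (SE 0.0739, adjusted p = 0.000139 in limma), opposite in sign to those of the 3 polymerase δ members.

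Markers of cell types moved in both directions, where 48.5% of all genes tested were called higher and 24.7% lower. All 10 markers of proliferating cells were higher, with a median log2 fold change of 0.89 and a summed FPKM of 160 to 167 in controls and 297 to 313 with MMK-1. Mki67, the gene of the antigen Ki67, was at 14.3, 13.7 and 13.6 in controls and 26.9, 27.7 and 28.2 with MMK-1. All 11 tested stem cell markers were higher, with a median of 1.58 and a sum of 108 to 110 against 482 to 510. Lgr5, the receptor that marks intestinal stem cells, was at 1.92, 2.03 and 2.14 in controls and 22.1, 21.2 and 19.6 with MMK-1. Of 18 enterocyte markers, 16 were lower and 1 was higher, with a median of -0.95 and a sum of 15635 to 15793 against 10775 to 11565. Alpi, the brush border alkaline phosphatase, was at 122, 117 and 117 without and 57.3, 59.5 and 64.98 with MMK-1. Libraries with MMK-1 thus had higher stem, proliferation and replication transcripts and lower enterocyte transcripts. The part of cell composition in the values of the members was not tested.

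Of 11 tested Paneth cell markers, 10 were higher, where 48.5% of all genes tested were. Their median was 1.54 and their sum was 477 to 527 in controls and 1488 to 1627 with MMK-1. Of 12 tested goblet cell markers, 9 were higher and 2 were lower, with a median of 0.28 and a sum of 1849 to 1992 against 1998 to 2183. Of 12 tested enteroendocrine markers, 9 were higher and 0 were lower, with a median of 0.31 and a sum of 399 to 418 against 539 to 551. Under TMM-type scaling the medians of goblet and enteroendocrine markers were 0.13 and 0.18, and that of all genes tested was 0.0055. None of the 10 tuft cell markers reached a mean FPKM of 1, and their sum was 2.14 to 2.46 against 2.51 to 2.93. Among 8 immune markers in the table, Cd68 and Itgam were tested and lower, and the sum was 6.19 to 6.74 against 2.46 to 3.30. The defining markers Ptprc and Cd3e reached at most 0.0136 and 0.0177 in any library. Among 9 mesenchymal markers, Vim was tested and lower, the sum was 5.87 to 6.45 against 3.76 to 5.46, and Col1a1, Col1a2 and Col3a1 reached at most 0.0681, 0.0258 and 0.0240. Pdgfrb, named after its values were seen, was at 1.15, 1.07 and 1.06 in controls and 0.235, 0.251 and 0.308 with MMK-1, and its mean was under the filter for the test. Of 12 housekeeping genes, 5 were higher and 4 were lower, with a median of 0.019.

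**Figure D5:**
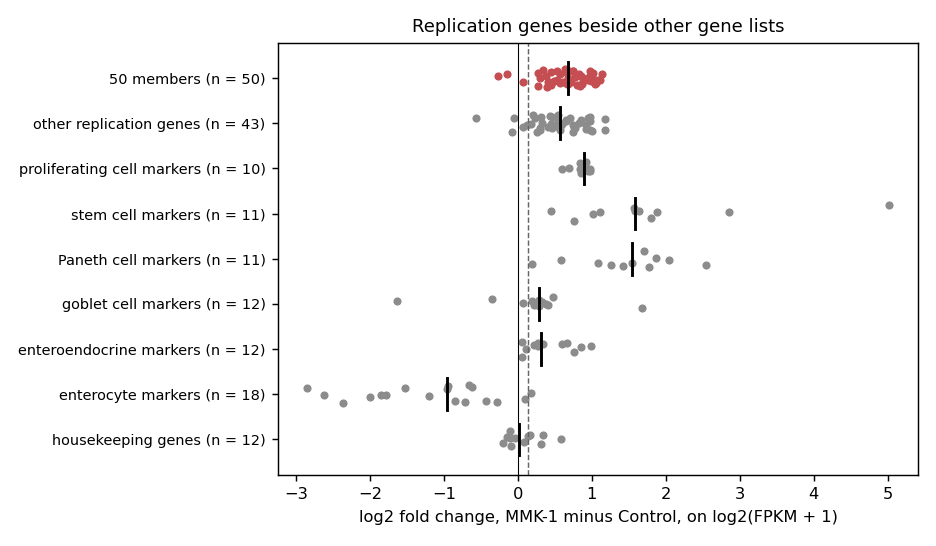
Log2 fold change of each tested gene (points), MMK-1 minus Control on the log2(FPKM + 1) scale, for the 50 members and 8 other gene lists, with the median of each list as a black line and that of all genes as a dashed line. The members centre on 0.68, other replication genes on 0.56, stem cell markers on 1.58 and enterocyte markers on -0.95.

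Without MMK-1 replicate 3, the same 47 members were called higher and Orc5 lower. The members then had a median log2 fold change of 0.66, against 0.12 for all genes tested. With all libraries, 48.5% of all genes were called higher and 24.7% lower, and the shares without replicate 3 are not given here. Replicate 3 was the highest MMK-1 library in 34 members and in 60.7% of all genes tested, and the lowest in 6 members and in 23.8% of all genes. Members with a GC content of 50% or more had a median log2 fold change of 0.85 and those with less than 40% had 0.67, over 17 and 5 genes. After GC correction these medians were 0.81 and 0.19, so the low-GC members Orc3, Orc4, Orc5, Dbf4 and Rpa3 depended most on the correction, and Dbf4 then had 0.82.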

How the data were processed

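RNA was sequenced from the organoids in 6 libraries. The authors deposited FPKM values with no stated scaling between libraries. The submitters' processing notes name HISAT2, HTSeq, DESeq2, R 3.2.0 and mm10, and the strand setting and annotation of the counting are not given in the sources used here. FPKM is not a count, so the tests used limma 3.58.1 (limma-trend, R 4.3.3) on log2(FPKM + 1), a pseudocount of 1, without a block. The columns of the authors' own comparisons were not used. Members were matched by symbol, and the members, roles and lists were chosen with earlier results of these data known, as were the promoter words. All members may be named, and from other lists the 3 largest called changes in each direction and, for cell types, the first 3 genes. Pole3 and Pole4 were named beyond this rule, after their values were seen.

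FPKM values of a gene were whole numbers of fragments times 1 factor per library, and fragments were recovered for 100% of genes within 0.01 of a whole number. Listed genes held 99.7% of each total. Counting intervals were not needed, since every member held at least 74 fragments per library. GC content, length and coordinates came from GENCODE on GRCm38, and trends were removed by local regression with a span of 0.3 over the 96.3% of tested genes that matched a transcript. Promoters came from RefSeq on GRCm38.p6, and 33 of the 41 windows lay with their bases after the start in a GENCODE transcript of the gene. Exons of 18 members overlap those of another gene, 10 of them of a gene with a mean FPKM of at least 1. In simulated data for MMK-1 against Control over 10551 genes, limma called 50 of 50 genes at each of the log2 fold changes -2, -1 and 2, 45 of 50 at 1, and 10 unchanged genes. Alternatives covered scaling, unit, filter, pseudocount, model, block, GC content, length, fold threshold and each library left out, and, added after the data were seen, the length that the FPKM values imply and, for shares, GENCODE lengths. The replicate numbers were not used to pair the libraries in the main fit. Chtf8, Atrip, Pla2g2a, Cd4, Cd8a, Ms4a1 and Lum, and FPR family genes, were not analysed here. Python 3.11.15, numpy 2.4.6, pandas 2.3.3, scipy 1.17.1 and matplotlib 3.10.9 were used.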

Additional observations from a re-analysis of the deposited data

How the results depend on the processing

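The number of members called higher was 47 under upper-quartile and TMM-type scaling, TPM, no filter, a pseudocount of 0.1, limma-voom and with each library left out. It was 45 after GC correction (Prim2 and Rpa3 lost) and after length correction (Rfc1 and Rfc2 lost), and 31 of the 33 members left by a filter at a mean FPKM of 5. That filter left 7306 genes to test. In the main fit 48.5% of all genes tested were called higher, and for settings with no share printed above, these counts stand without one. One member was lower, except for 2 under TMM-type scaling and 2 without Control replicate 3, where Gins4 was added. The size of the changes depended more on the processing. The 7 members with a 2-fold rise (3.39% of all genes) became 3 under upper-quartile scaling (2.6%), 0 under TMM-type scaling (2.18%), 13 in TPM (5.29%), 17 with a pseudocount of 0.1 (6.41%), 17 with limma-voom (6.9%), 2 after GC correction (2.31%), 3 after length correction (2.49%), 32 at a fold of 1.5 (14.2%), and 5 to 9 with a library left out (3.18% to 4.11%). The median log2 fold change of 0.68 became 0.61 under upper-quartile scaling, 0.55 under TMM-type scaling, 0.74 in TPM, 0.77 with a pseudocount of 0.1, 0.79 with limma-voom, 0.61 after GC correction, 0.61 after length correction, and 0.66 to 0.70 with a library left out. A larger value with a smaller pseudocount follows from its construction, and for the other settings the cause was not tested. Orc3, which was not called, turned from 0.06 to -0.0048 under upper-quartile scaling, -0.059 under TMM-type scaling, -0.28 after GC correction and -0.041 after length correction. With the lengths that the FPKM values imply, chosen after the data were seen, 46 members were higher (Rfc1 lost) and 1 lower, 5 reached a 2-fold rise (2.49%), the median was 0.61 and Orc3 was at -0.13. Over all genes, 5118 were called higher and 2606 lower, and 3785 and 3829 under TMM-type scaling.

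A block for replicate number left 47 members higher and 1 lower, with 7 at a 2-fold rise (3.4% of all genes). Deviations of libraries with the same number correlated across genes at 0.025, -0.040 and 0.028. These values cannot decide whether such libraries shared a culture, since MMK-1 replicate 3 stood apart within its group. The labels do not say whether they did. With the block and GC correction together, 45 members were higher, 2 reached a 2-fold rise (2.31% of all genes), the median was 0.61 and Orc3 was at -0.28. Fewer than 100 fragments in some library stood behind 2 members.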
